A study of Mus musculus with 9 samples.

Results

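The untreated baseline of the study was described from its 3 control libraries, out of 9 in the series. They were chosen by their label alone: wild-type C2C12 cells differentiated in DMEM with 2% FBS and kept in normal medium, with day 3 given as the time. The other 6 libraries, from fibres whose medium received 6 one-carbon metabolites or 6 unrelated metabolites, had the same differentiation and were not used, and no groups were compared. C2C12 is an established line of mouse satellite-cell origin, so all libraries share a single source. Nothing in the labels ties the 3 libraries to separate cultures, and the spread between them may be technical. Levels are the deposited TPM values, which divide counts by transcript length and scale each library to the same total, so that levels of different genes can be set side by side.

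Control library 1 stood apart from libraries 2 and 3. Total counts were alike, at 31.2, 32.0 and 33.2 M for libraries 1 to 3 with 1 transcript per gene symbol. On log2 CPM (counts scaled to library size, not to length) of the 8119 symbols with a mean of at least 10 TPM, Pearson's r across genes was 0.998 between libraries 2 and 3, against 0.987 and 0.986 between library 1 and each of them. Genes are not independent replicates, so these correlations are descriptions. Levels are therefore given for each library below, in the order 1, 2 and 3. The shares of TPM held by sarcomere and ribosomal protein genes are also given without library 1.

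C2C12 myoblasts proliferate in rich medium. When serum is withdrawn they stop dividing, switch on the muscle transcription factor myogenin, fuse into multinucleated fibres and build sarcomeres, the repeating units of thick myosin and thin actin filaments that contract. Cultures also keep unfused, mononucleated reserve cells. In bulk RNA, fewer cells of a type and less RNA per cell cannot be told apart.

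The bases before the transcription start of 5 genes are shown because these genes stand for the steps of that programme: Myog (myogenin), Chrng (the fetal subunit of the acetylcholine receptor), Mylpf (the fast myosin regulatory light chain) and the sarcomeric actins Acta1 and Actc1. Each sequence is the 150 bases before the start, 5′ to 3′ on the gene's strand, from RefSeq on build GRCm38.p6. Capitals mark the letters CANNTG (the E-box, the core bound by MyoD-family factors), TATAAA on either strand, and the CArG box, which serum response factor binds.
Myog, chr1:134289854-134290003, plus strand: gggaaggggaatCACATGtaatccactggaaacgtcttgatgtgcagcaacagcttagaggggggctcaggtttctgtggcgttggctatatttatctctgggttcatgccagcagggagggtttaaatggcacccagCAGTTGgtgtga
Chrng, chr1:87205661-87205810, plus strand: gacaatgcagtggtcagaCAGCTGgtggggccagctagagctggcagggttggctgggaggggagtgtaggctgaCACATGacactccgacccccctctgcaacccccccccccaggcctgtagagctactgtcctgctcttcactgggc
Mylpf, chr7:127211458-127211607, plus strand: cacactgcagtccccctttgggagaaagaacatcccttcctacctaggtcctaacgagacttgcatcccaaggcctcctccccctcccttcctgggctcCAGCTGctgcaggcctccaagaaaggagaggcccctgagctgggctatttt
Acta1, chr8:123894776-123894925, minus strand: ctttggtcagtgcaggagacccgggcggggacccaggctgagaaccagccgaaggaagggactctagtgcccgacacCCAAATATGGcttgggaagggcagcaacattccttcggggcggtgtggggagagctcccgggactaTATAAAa
Actc1, chr2:114052876-114053025, minus strand: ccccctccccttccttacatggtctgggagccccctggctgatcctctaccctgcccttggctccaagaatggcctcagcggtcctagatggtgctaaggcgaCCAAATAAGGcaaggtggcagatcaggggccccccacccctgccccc
Of the 63 sarcomere genes of the lists, 49 had an entry in the RefSeq promoter table. Within the 250 bases before the start, CANNTG was present in 79.6% of them, against 66.0% of all 27025 promoters in the table and 55.9% of the 9439 promoters of genes at 1 TPM or more. The CArG box was present in 14.3% of the sarcomere genes and in 1.40% of all promoters. The MEF2 site was present in 12.2% and 0.518%, and CATTCC on either strand (the MCAT core) in 28.6% and 12.6%. TATAAA on either strand was present in 20.4% and 13.0%. A match of letters is a description of the window and not a binding site.

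Mature microRNA sequences are shown for 3 hairpins that had entries of their own in the tables, with the seed (bases 2 to 8) in capitals, from RefSeq on build GRCm38.p6. They are shown because the Mir675 hairpin was the entry with the highest TPM, and because miR-133b and miR-206 are microRNAs of muscle. The hairpins of these 2 had few counts in libraries 1 to 3: 218, 100 and 90 for Mir133b and 5, 7 and 0 for Mir206.
miR-675-5p: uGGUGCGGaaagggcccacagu
miR-675-3p: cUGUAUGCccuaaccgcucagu
miR-133b-3p: uUUGGUCCccuucaaccagcua
miR-206-3p: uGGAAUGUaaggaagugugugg
The seeds of these 4 mature microRNAs all differ. The tables count reads of an mRNA library over the whole hairpin, so the values do not measure the mature forms.

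The most abundant RNAs of control fibres came from secreted, translation and cytoskeletal genes and from 3 genes of the sarcomere. Spp1 (osteopontin, a secreted phosphoprotein), H19 (an imprinted long noncoding RNA), the translation factor Eef1a1, the calcium-binding protein S100a4, the growth-associated protein Tpt1 and the lectin Lgals1 all had means above 4000 TPM. Mylpf, at 4137, 4122 and 3665 TPM, had the highest level among the sarcomere genes and rank 8 over all symbols. Tnnc1 (slow troponin C, the calcium sensor of the thin filament) had 2398, 2215 and 1924 TPM, and Myl1 (fast myosin essential light chain) had 2386, 2194 and 1924 TPM. These 3 sarcomere genes were all highest in library 1 and lowest in library 3.

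Spp1 had 7065, 8921 and 9065 TPM in libraries 1 to 3. H19 had 5824, 5444 and 4890 TPM, the reverse order. Mir675, whose hairpin lies within H19, had 18826, 17167 and 15987 TPM from 34914, 34397 and 32914 counts on 84 bases. These counts cannot be told apart from reads of H19 that overlap the hairpin. H19 itself had 336235, 339553 and 313452 counts on 2615 bases, the highest mean count of any symbol. Entries under 200 bases took 5.41 ± 0.35% (SD, n = 3) of the TPM but 0.2003 ± 0.0075% of the counts, so they rank far higher by TPM than by count. Shares are taken over the entries kept, 1 per symbol.

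Ribosomal proteins were the most frequent kind of gene at the top, with 13 of the 30 most abundant entries and 48 of the first 100. The 82 cytosolic ribosomal protein genes together held 12.7 ± 1.3% of the TPM, with 11.3, 13.4 and 13.5% in libraries 1 to 3. Without library 1 they held 13.5 ± 0.055% (SD, n = 2). Respiratory chain genes held 2.54 ± 0.089%. The 63 sarcomere genes held 3.87, 3.03 and 2.66%, a mean of 3.19 ± 0.62%, and 2.85 ± 0.26% (SD, n = 2) without library 1. Ranked by count, which favours long transcripts, the order changed: after H19 came Fn1 (fibronectin), Spp1, Eef1a1 and Col3a1 (type III collagen). Fn1 had 1545, 1493 and 1535 TPM.

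**Figure D1:**
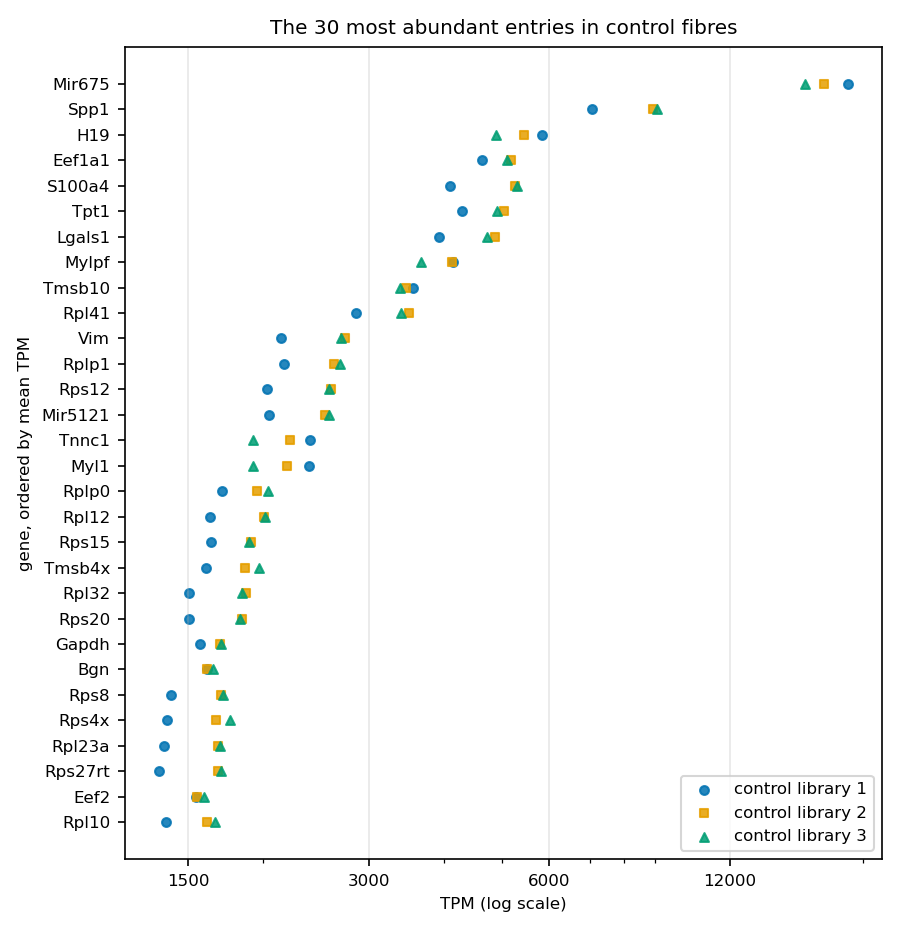
TPM on a log scale of the 30 entries with the highest mean TPM, with 1 point for each control library. Mir675 lies highest, at 15987 to 18826 TPM, and Mylpf, Tnnc1 and Myl1 are the sarcomere genes among the 30.

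Abundance was concentrated in few genes. The 10 most abundant entries held 9.39 ± 0.25% of the TPM, the first 100 held 28.2 ± 1.2% and the first 1000 held 61.0 ± 1.4% (SD, n = 3). Genes were called on at 1 TPM or more in all 3 libraries and off below 0.1 TPM in all 3. Of 24063 symbols, 12156 were on (50.5%), 8569 were off (35.6%) and 3338 lay between (13.9%). A count of 0 in all 3 libraries was found for 6270 symbols (26.1%). At this depth, 0 counts allow a level of up to 0.0961, 0.0937 and 0.0905 CPM (3 counts, counting error only). The median on gene had 17.0 TPM, with quartiles of 7.29 and 38.2 TPM, and 69 symbols reached 1000 TPM in all 3 libraries.

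**Figure D2:**
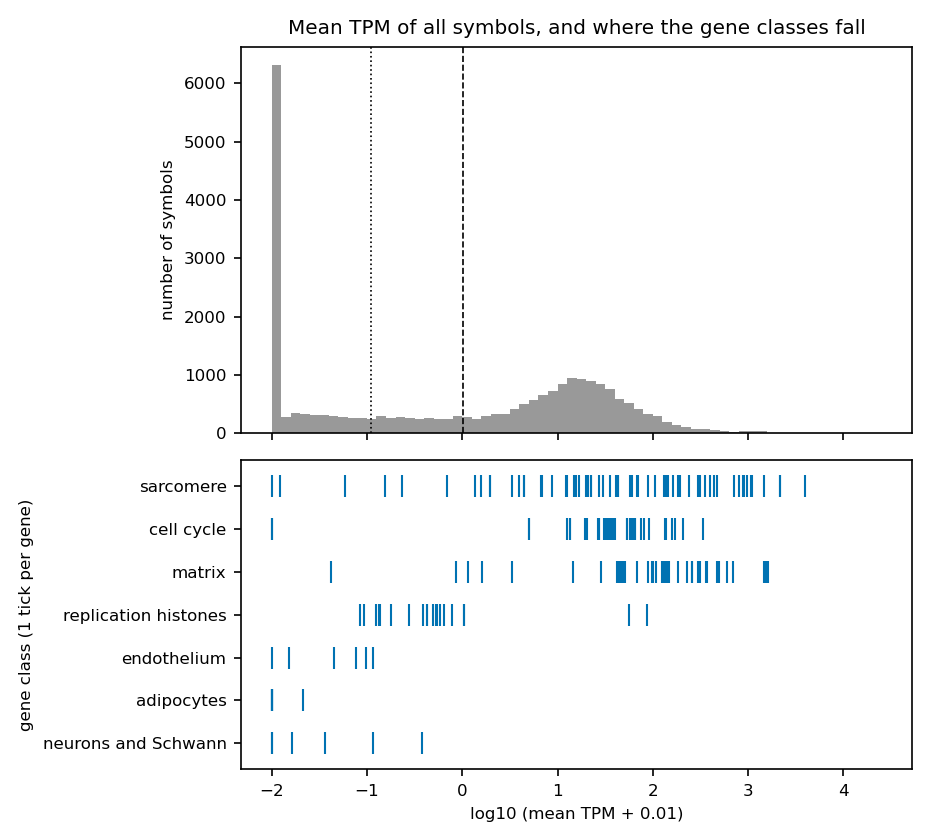
Upper panel, number of symbols by log10 of mean TPM plus 0.01, with dashed and dotted lines at 1 and 0.1 TPM. Lower panel, 1 tick per gene for classes of genes on the same axis. All 12156 on genes lie right of the dashed line, whereas endothelial, adipocyte and neuronal markers lie left of it.

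Most genes of the muscle lists were on. Of 260 symbols in 11 muscle classes, 224 were on (86.2%, against 50.5% of all symbols), 22 lay between and 14 were off. The lists hold genes known from muscle together with general ones, which are part of the 86.2%. Among these, all 6 nonmuscle and smooth muscle light chains and both cytoplasmic actins were on, as were 20 of 22 glycolysis and glycogen genes. The inhibitors of differentiation, 11 of 13 on, are counted too. The share describes the lists and was not tested. The off genes included Twist1, Nphs1, Bai1, Bai3, Myh15, Myl7, Mybpc3, Kbtbd13, Ryr2, Sln, Pln, Krt18 and Ckmt1. Among them, Myl7, Mybpc3 and Ryr2 are best known from heart, and Sln and Pln encode small inhibitors of the calcium pump.

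Among the transcription factors that set muscle identity, all 4 of the MyoD family were on. Myog, which drives terminal differentiation, had 449, 293 and 293 TPM. Myod1, which commits cells to muscle, had 126, 117 and 118 TPM, and Myf5, its relative in early myoblasts, had 19.7, 22.4 and 22.1 TPM. Myf6 (MRF4), the member typical of mature fibres, stood at 1.74, 1.65 and 1.67 TPM, just above the limit. Myog was thus the most abundant of the family in each library, and its library 1 value lay apart from the other two. Mef2a, Mef2c and Mef2d, partners of the MyoD family, were on, with Mef2c at 86.0, 56.2 and 48.9 TPM, whereas Mef2b lay between at 0.311, 0.383 and 0.311 TPM.

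Factors of muscle progenitors were present at lower levels. Pax7, the satellite cell factor, had 9.25, 8.62 and 10.1 TPM, whereas its relative Pax3 had 0.117, 0.184 and 0.0527 TPM. Of the 13 inhibitors of differentiation listed, 11 were on. Id3, which sequesters the partners of MyoD, had 176, 202 and 218 TPM, and Twist1 had 0.0278, 0 and 0 TPM.

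Both muscle fusogens were on. Tmem8c (myomaker), the membrane protein that starts fusion, had 321, 137 and 133 TPM. Gm7325 (myomixer), the small protein that completes it, had 85.01, 63.4 and 61.2 TPM. Of the 15 adhesion molecules listed, 12 were on and 3 were off. The 3 off were Nphs1 and the receptors Bai1 and Bai3, with Bai1 and Bai3 at 0 counts. Cdh15 (M-cadherin) had 133, 119 and 119 TPM. Of the membrane repair genes, all 7 were on, from Capn3 at 11.1, 7.02 and 6.39 TPM to Anxa1 at 595, 745 and 759 TPM.

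Sarcomeric myosin heavy chains, the motors of the thick filament, were mixed in type. Myh3, the embryonic chain, had 418, 170 and 139 TPM. Myh1, the adult fast IIx chain, had 578, 185 and 136 TPM, and Myh4, the adult fast IIb chain, had 118, 33.2 and 24.5 TPM. Myh8 (perinatal) had 51.6, 22.8 and 15.8 TPM, Myh7 (slow) had 49.2, 16.9 and 16.3 TPM, and Myh2 (IIa) had 27.4, 9.63 and 7.31 TPM. In each of the 3 libraries Myh1 and Myh3 were the leading chains, but their order was Myh1 above Myh3 in libraries 1 and 2 and the reverse in library 3. Myh13 lay between and Myh15 was off. These genes are near-identical in places. Elsewhere near-copies such as Eno1 and Eno1b had almost the same counts, so reads shared by several heavy chains may stand under each. The sources used here do not state how such reads were counted, so the shares of the heavy chains are uncertain to that extent.

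The leading light chains exceeded the heavy chains in TPM. Myl4, the embryonic and atrial essential light chain, had 1215, 1091 and 978 TPM, about the level of the Myl6 nonmuscle chain at 1201, 1456 and 1445 TPM. Myl2, the slow and ventricular regulatory chain, had 363, 397 and 304 TPM, whereas Myl7, the atrial regulatory chain, had 0 counts. Mylpf, whose promoter is printed above, stood over Myl2 by 11.3-fold (mean log2 ratio, with 0.1 TPM added).

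Troponins, the calcium switch of the thin filament, were all on, and fast, slow and cardiac forms were present together. Tnnt3 (fast troponin T) had 1272, 1089 and 881 TPM, Tnnt2 (the cardiac form) had 1122, 848 and 758 TPM, and Tnnt1 (the slow form) had 611, 441 and 378 TPM. The order Tnnt3, Tnnt2, Tnnt1 held in each library. The inhibitory subunits Tnni2 (fast) and Tnni1 (slow) changed order, with 868, 835 and 729 TPM against 1158, 803 and 680 TPM. With TPM summed over its 2 transcripts, Tnni1 had 2370, 1644 and 1392 TPM and was higher than Tnni2 in all 3 libraries. Reads shared by the 2 transcripts count more than once in that sum, whereas Tnni2 has 1 transcript. Tnni3, the cardiac inhibitory subunit, stood at 1.59, 1.58 and 1.49 TPM.

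Acta1, the adult skeletal actin, had 2292, 1098 and 1049 TPM, and Actc1, the cardiac and fetal actin, had 442, 265 and 225 TPM. Acta1 exceeded Actc1 in all 3 libraries, by 4.64-fold. Against Actb, the cytoplasmic actin at 1048, 1272 and 1331 TPM, Acta1 was higher in library 1 and lower in libraries 2 and 3. With TPM summed over its 2 transcripts, Acta1 had 4723, 2262 and 2162 TPM and was higher than Actb in all 3 libraries. The 2 transcripts had nearly the same counts, 79508, 41134 and 40394 against 79473, 41127 and 40385. Reads shared by both count more than once in that sum, whereas Actb has 1 transcript, so the sums are not on equal terms. The smooth muscle actin Acta2, which also marks myoblasts and early myotubes, had 604, 628 and 613 TPM.

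Of the 49 listed genes of the thick filament, Z-disc and M-band, 45 were on. Ankrd1, a stretch-responsive ankyrin repeat protein, had 1098, 970 and 858 TPM and Mybph, a myosin-binding protein, had 707, 308 and 287 TPM. The giant proteins stood lower per length, with Neb (nebulin, the ruler of the thin filament) at 91.1, 21.2 and 17.98 TPM and Ttn (titin, the spring of the sarcomere) at 14.2, 3.31 and 2.46 TPM. Library 1 was several times the others for both. Mybpc3, the cardiac myosin-binding protein C, was off at 0.0982, 0 and 0.0492 TPM, whereas Mybpc2, the fast form, had 23.6, 12.4 and 10.5 TPM.

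**Figure D3:**
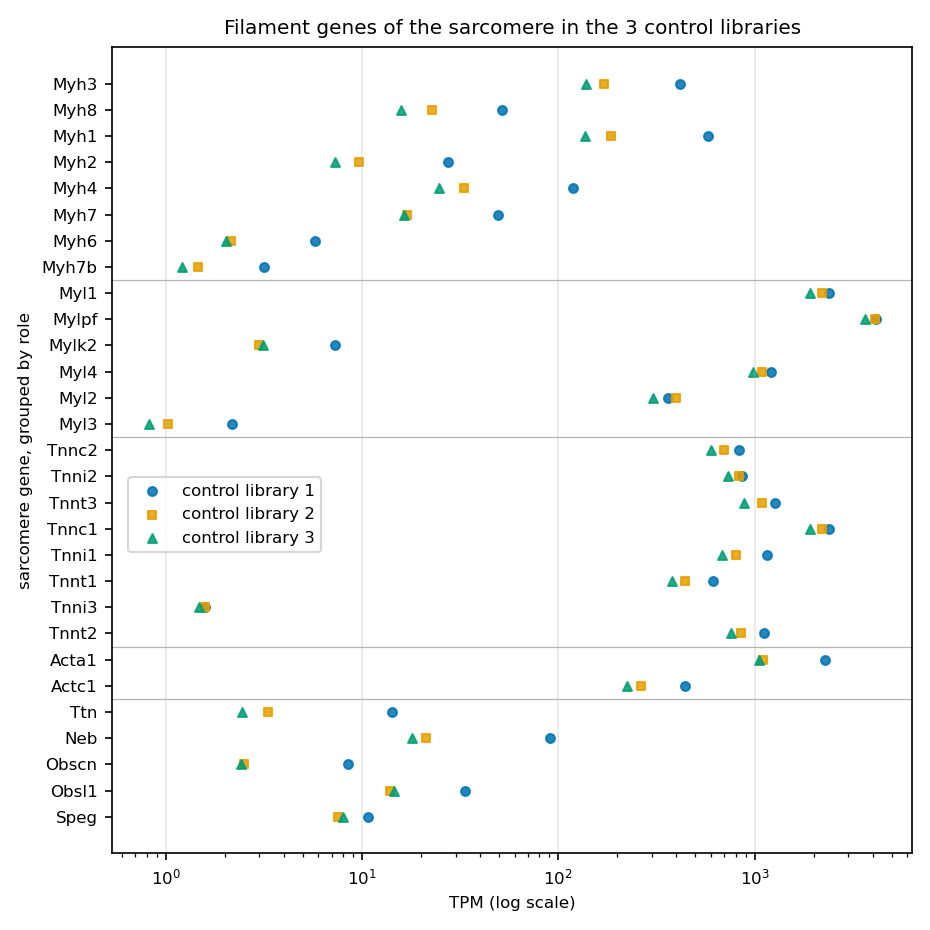
TPM on a log scale of filament genes of the sarcomere with a mean of at least 1 TPM, grouped by role, with 1 point for each control library. Heavy chains and giant proteins spread widely, with library 1 highest, whereas Mylpf, Myl1 and Tnnc1 lie close together.

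Excitation-contraction coupling links the surface membrane to calcium release from the sarcoplasmic reticulum. All 5 voltage sensor genes were on, among them Cacna1s, the pore of the sensor, at 26.4, 7.64 and 7.73 TPM. Ryr1, the skeletal calcium release channel, had 30.3, 10.7 and 10.4 TPM, Ryr3 had 1.90, 0.980 and 0.773 TPM and Ryr2, the cardiac channel, was off. Of the calcium pumps, Atp2a2 (SERCA2), at 229, 105 and 103 TPM, exceeded Atp2a1 (SERCA1, the fast fibre pump), at 128, 43.4 and 41.1 TPM. Of the pump regulators, Sln had 0 counts and Pln had 0, 0 and 0.0520 TPM. Casq2, the cardiac and slow calsequestrin, exceeded Casq1 in each library, with 462, 307 and 265 TPM against 266, 133 and 94.1 TPM. Clcn1, the chloride channel of adult fibres, lay between at 0.243, 0.166 and 0.161 TPM.

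RNA of the fetal acetylcholine receptor subunit far exceeded that of its adult counterpart. Chrng, the fetal gamma subunit, had 224, 82.2 and 72.3 TPM and Chrne, the epsilon subunit that replaces it after innervation, had 0.456, 0.264 and 0.103 TPM. The shared subunit Chrna1 had 319, 214 and 195 TPM. Of the 12 genes of receptor clustering, 10 were on, including Musk, the agrin receptor kinase, at 37.7, 24.97 and 25.2 TPM. Ache and Colq lay between.

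All 15 genes of the dystrophin complex were on, with Dmd (dystrophin) at 3.52, 1.48 and 1.27 TPM and Dag1 (dystroglycan) at 116, 83.0 and 84.6 TPM. Among intermediate filaments, Vim (vimentin, of undifferentiated mesenchymal cells) exceeded Des (desmin, of muscle), with 2144, 2739 and 2693 TPM against 881, 674 and 648 TPM. Vim was lowest and Des highest in library 1.

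Energy genes were mixed in isoform. Pfkm, the muscle phosphofructokinase, exceeded the platelet form Pfkp, with 154, 71.6 and 65.7 TPM against 41.4, 39.1 and 44.9 TPM. Eno1 exceeded the muscle enolase Eno3, with 1040, 1243 and 1370 TPM against 565, 453 and 409 TPM. Eno1, however, shares its counts almost exactly with the copy Eno1b. With TPM summed over the 3 Eno3 transcripts, Eno3 was higher in libraries 1 and 2 and Eno1 in library 3. The mean log2 ratio of Eno3 over Eno1 was then 0.29. Reads shared by the 3 transcripts count more than once in that sum, whereas Eno1 has 1 transcript. Pgam1 exceeded the muscle form Pgam2, with 130, 150 and 172 TPM against 59.9, 30.4 and 27.3 TPM. Slc2a1, the glucose transporter of dividing cells, had 60.5, 59.3 and 70.2 TPM and Slc2a4 (GLUT4), the insulin-responsive transporter of muscle, had 0.562, 0.579 and 0.564 TPM. Muscle creatine kinase Ckm, at 80.2, 53.3 and 43.7 TPM, and brain creatine kinase Ckb, at 66.0, 51.96 and 54.8 TPM, changed order between libraries. Mb (myoglobin, the oxygen store of muscle) stood high, at 1106, 1100.2 and 975 TPM.

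Across 37 pairs of related genes, in most of which the form more typical of skeletal or mature muscle is named first, the first gene was higher in all 3 libraries in 15 pairs, the second in 18, and the order changed between libraries in 4. The 4 were Ckm over Ckb, Pygm over Pygb, Acta1 over Actb and Tnni2 over Tnni1. In the first 3 of them library 1 favoured the muscle form most. The tally depends on the pairs listed: Myh3 was the second gene beside Myh4, Myh8 and Myh7, and Myh1 was in no pair. Skeletal over cardiac or other forms led for Ryr1 over Ryr3, Actn3 over Actn2 and Mylpf over Myl2. The general or fetal form led for Myh3 over Myh8, Chrng over Chrne, Slc2a1 over Slc2a4 and each of 3 pairs of cytochrome oxidase subunits. Eef1a1 led over Eef1a2, the form of adult muscle and neurons, at 2.46, 0.430 and 0.518 TPM for Eef1a2.

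**Figure D4:**
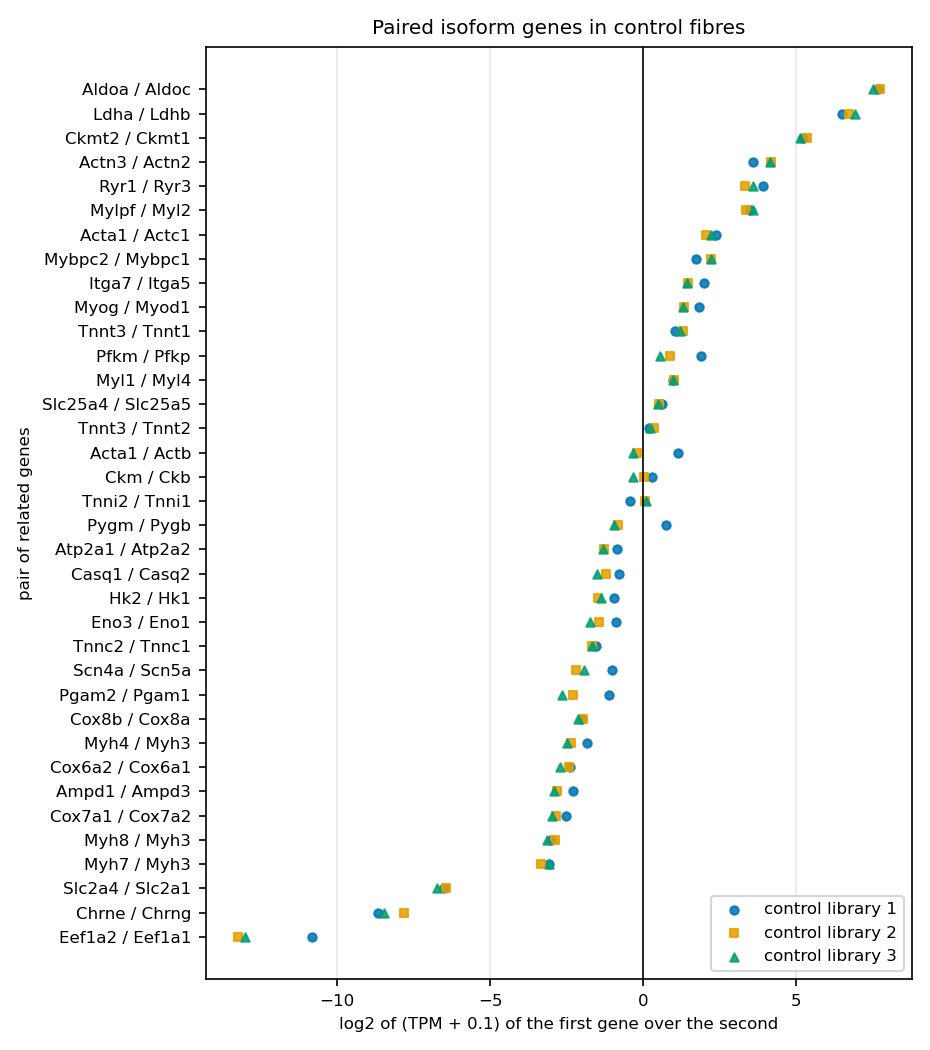
Log2 ratio of the first gene over the second, with 0.1 TPM added to each, for 36 of the 37 pairs of related genes, with 1 point for each control library. Points right of the line mark pairs where the first gene was higher, as in 15 pairs for all 3 libraries.

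Genes of dividing cells were on beside those of fibres. All 15 mitosis genes and all 12 replication genes of the lists were on, where 50.5% of all symbols were on and 13.9% lay between. Top2a, which untangles chromosomes, had 115, 142 and 143 TPM, and Mki67, a marker of proliferating cells, had 53.2, 63.7 and 63.5 TPM. Library 1 was below libraries 2 and 3 for both. Cdkn1a (p21), the inhibitor linked to cell cycle exit in muscle, had 476, 265 and 265 TPM. Cdkn2a and Cdkn2b had 0 counts in all 3 libraries. Of 20 replication-dependent histone genes, whose mRNAs usually end without a poly(A) tail, 2 were on and 18 lay between. The 2 were Hist1h1c, at 105, 78.1 and 75.6 TPM, and Hist1h2bc, at 66.0, 51.8 and 52.3 TPM.

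Markers of myoblasts and reserve cells were on for 20 of 21 genes. Over all symbols 50.5% were on, a share that also stands beside the matrix and secreted counts below. Ly6a (Sca-1) had 384, 491 and 532 TPM, Cd34 had 61.0, 64.3 and 70.3 TPM, and Thy1 was the gene that was off. Matrix genes were on for 40 of 42, with Col3a1 at 1715, 1397 and 1530 TPM, Sparc, a collagen-binding glycoprotein, at 1482, 1396 and 1484 TPM and Bgn, a small proteoglycan, at 1616, 1613 and 1651 TPM. Matrix genes held 1.97 ± 0.093% of the TPM and 4.65 ± 0.14% of the counts. Of 28 secreted factors, 25 were on, led by Igfbp5, an IGF-binding protein of differentiating myoblasts, at 532, 491 and 472 TPM. Mstn (myostatin), the inhibitor of muscle growth, had 0.118, 0.0313 and 0.0456 TPM.

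The label of muscle cells was checked against markers of other tissues. Over all symbols 50.5% were on and 35.6% were off. None of 6 endothelial, 5 adipocyte, 6 neuronal and Schwann or 4 liver markers was on, with Ptprc, the pan-leukocyte marker, Plin1, Rbfox3 and Alb at 0 counts. The summed level of the 5 adipocyte markers had a mean of 0.0113 ± 0.020 TPM. Of 7 blood and macrophage markers, Cd68 and Hba-a1 were on, at 2.62, 2.42 and 1.80 TPM and at 1.54, 4.05 and 1.61 TPM. Of 9 smooth muscle and pericyte markers, 6 were on, led by Acta2 and Des, whereas Myh11, the defining smooth muscle myosin, was off. Of 8 heart markers, Tnni3, Myh6 and Gata4 were on, none above 6 TPM. Of 8 cartilage and bone markers, 2 were on: Sox9, a factor of cartilage, at 18.3, 20.5 and 22.8 TPM and Runx2, a factor of bone, at 14.1, 13.5 and 14.4 TPM. The cartilage matrix genes Col2a1 and Acan were off. Of 4 epithelial markers, Krt14 was on, at 1.39, 2.05 and 2.80 TPM.

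The main transcript of a symbol was set by the highest count. Of the 24063 symbols, 5261 (21.9%) had more than 1 transcript, up to 22. Among the 4491 of these with counts, the second transcript had at least 0.9 of the count of the first in 3785 (84.3%), so the tables seldom tell the transcripts of a symbol apart. The 2 Pkm transcripts listed, of equal length, had 72615, 85054 and 91687 counts against 72524, 84799 and 91396. Choosing by TPM instead gave another transcript for 2548 symbols (56.7%). For Fth1, the ferritin heavy chain, this moved the level from 1491, 1426 and 1352 TPM to 2392, 2287 and 2168 TPM, as the second transcript is 942 bases long against 1511. For Myl1 the alternative was 817 bases long, against 994, at 2662, 2524 and 2224 TPM.

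Spread among the libraries was small for most genes. The median SD of log2 CPM over 8119 symbols was 0.085, and 102 symbols exceeded 0.5. Among the genes with the smallest spread were Ccar1, a transcriptional coactivator, at 44.3, 42.01 and 42.6 TPM, and Tardbp, an RNA-binding protein, at 39.6, 37.4 and 38.0 TPM. The common biological coefficient of variation (edgeR's estimate of the spread beyond counting) was 0.115 over the 3 libraries and 0.0368 without library 1. Library 1 lay farthest from the mean of the other libraries for 5343 of the 8119 symbols (65.8%). Rn45s, the ribosomal RNA precursor, had 453, 1044 and 353 TPM, highest in library 2.

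Many of the genes that were higher in library 1 were muscle genes. Library 1 was at least 1.5-fold above both other libraries for 173 of 8119 symbols (2.13%) and at least 1.5-fold below both for 8 (0.0985%). The same counts were 4 (0.0493%) and 6 (0.0739%) for library 2, and 3 (0.037%) and 3 (0.037%) for library 3. Of the 195 muscle class symbols among the 8119, library 1 was above both others for 53 (27.2%) and below both for 0. Of the 46 sarcomere genes with a mean of at least 10 TPM, 22 were among the 173, and the median difference of library 1 from the mean of libraries 2 and 3 was 0.57 on the log2 CPM scale, against -0.03 over all 8119. All 6 heavy chains at that level were among them, with a median of 1.56. The limit of 10 TPM was set on the mean, which includes library 1. Some genes passed it only through library 1, such as Myh2 at 27.4, 9.63 and 7.31 TPM and Cacna1s at 26.4, 7.64 and 7.73 TPM. Counts and medians of genes at that level are therefore partly set by this choice. Neb differed by 2.15, Myh4 by 1.98 and Myh1 by 1.79, whereas Mylpf differed by 0.02. Of 24 genes of excitation-contraction coupling 13 were among the 173. Outside the lists, the predicted gene 4930573O16Rik, at 38.3, 7.83 and 6.62 TPM, and Padi2, a peptidylarginine deiminase, at 39.8, 14.3 and 10.99 TPM, were among the 10 farthest above.

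Genes of division, translation and general cell upkeep were lower in library 1. The median difference was -0.40 for the 15 mitosis genes, -0.37 for the 12 replication genes and -0.35 for 78 ribosomal protein genes, and library 1 was lower for every gene of these 3 lists. The 16 common reference genes had a median of -0.21, with 1 above 0, and the 2 cytoplasmic actins had a median of -0.38. Nefl, the light neurofilament chain, was farthest below, at 24.2, 53.7 and 38.5 TPM. It was followed by Prl2c3 and Prl2c4, near-identical members of the prolactin family.

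Transcript length moved with the difference of library 1. Its median rose from -0.27 for transcripts of 200 to under 500 bases (n = 82) to 0.14 for those of 8000 bases or more (n = 271), while entries under 200 bases had 0.04 (n = 145). Spearman's rho between length and the difference was 0.37 over 8119 genes and 0.38 over the 7924 outside the muscle classes, against -0.13 for library 2 minus library 3. Within the 46 sarcomere genes rho was 0.75, with a median of 0.14 for the 9 genes of 500 to under 1000 bases 1.37 for the 13 genes of 4000 to under 8000 bases and 1.03 for the 3 genes of 8000 bases or more. At 4000 to under 8000 bases the median outside the muscle classes was 0.04. The rho values are across genes and are given without a test, and the part of length in the sarcomere difference was not tested.

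**Figure D5:**
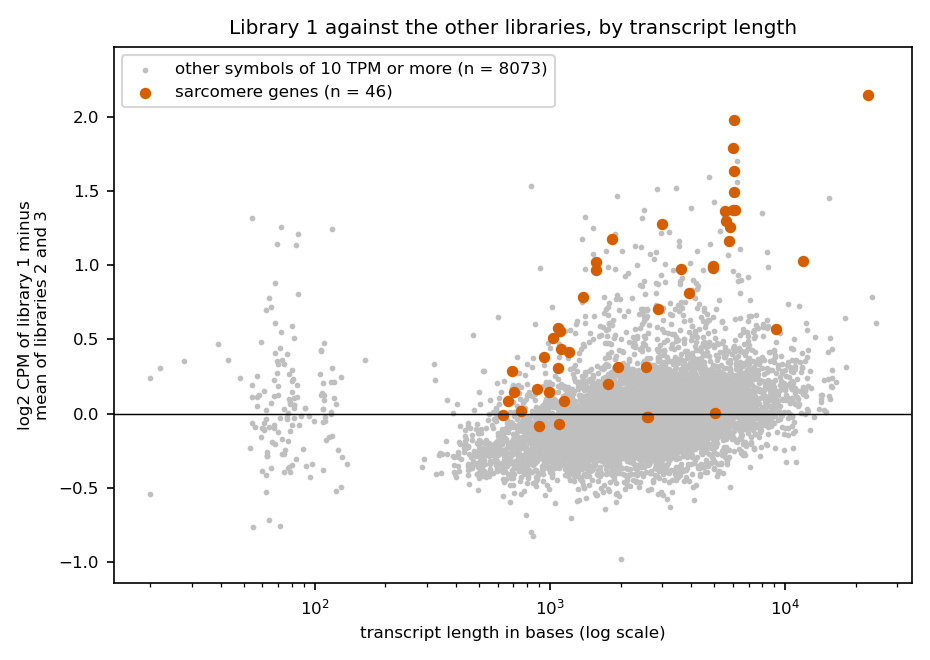
Difference of library 1 from the mean of libraries 2 and 3 in log2 CPM, against transcript length on a log scale, for 8119 symbols with a mean of at least 10 TPM. The 46 sarcomere genes are coloured, and most of those above 4000 bases lie over the other symbols of their length.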

How the data were processed

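RNA of C2C12 fibres was isolated with a column kit and sequenced from 1.3 µg of total RNA, per the labels' protocols. In alphabetical order, the submitters' processing notes list bedtools 2.30.0, DESeq2 1.28.0, featureCounts, Picard 2.27.4, Salmon 1.5.2, SAMtools 1.15.1, STAR, StringTie 2.2.1, Subread 2.0.1 and Trim Galore 0.6.7, with build GRCm39 and no roles. The sources used here do not say which of them made the values or whether strand was used.

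The deposited columns are count, FPKM and TPM, per the file headers, with 1 row for each of 33984 RefSeq transcripts. The authors' counts are whole numbers, 51.8, 52.9 and 54.9 M in libraries 1 to 3, and reads shared by transcripts stand under each. The authors' FPKM served to recover lengths. The authors' TPM was used unscaled: the transcript with the highest mean count stood for its symbol, which kept 64.3, 65.1 and 65.1% of the TPM. Near-copies share counts too, with 28 symbols in 14 groups of identical counts.

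Spread was estimated with edgeR 4.0.16 (R 4.3.3), TMM scaling, filterByExpr and a prior count of 2, and was checked on simulated counts. No groups were compared and no p-value was computed. Members and lists were chosen with earlier results of these data known. Of 527 list entries, 29 were matched through RefSeq accessions and 6 found no match. Named were the 30 most abundant entries, list members, and the 15 genes of largest and smallest spread, the 10 farthest above and below in library 1 and the 10 leading genes whose main transcript depends on the choice, described in part, and some list members are not reported here. Transcript choice, thresholds, scaling and left-out libraries were varied.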

Additional observations from a re-analysis of the deposited data

How the results depend on the processing

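No paired analysis was possible because no groups were compared and no result comes from a test. The number of genes on ranged from 9823 at 5 TPM to 13520 with at least 10 counts in each library. The muscle class members on ranged from 205 at 5 TPM to 230 at 0.5 TPM. The share of TPM held by the 100 most abundant entries was 31.5% with TPM summed over transcripts, 26.7% for protein-coding entries, 17.7% of counts, and 26.6% without entries under 200 bases, an alternative added after the data were seen. It was 27.8 to 28.9% with a library left out. The sarcomere share of TPM was 4.46% with TPM summed over transcripts and 2.85 to 3.45% with a library left out. Between 15 and 16 pairs had the first gene higher in each library under the alternatives run. With summed TPM the mean log2 ratio of Eno3 over Eno1 changed sign, to 0.29, and the order turned in 2 libraries each for Eno3 and Eno1, Acta1 and Actb, and Tnni2 and Tnni1. The common coefficient of variation was 0.0368 to 0.141 with a library left out, the lowest without library 1. Summed TPM counts reads shared by transcripts once for each transcript. Over symbols with more than 1 transcript and with counts, the second transcript had a median of 0.998 of the count of the first. The sums therefore rise with the number of transcripts listed for a symbol, and they are not a second measure of its level. The cause of the other moves was not tested. Depth limits statements on genes near 0.1 TPM, where a library holds few counts. Groups of 3 are too small for the check for a single outlying sample.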

Other observations

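The Hox genes, which record position along the body axis, were on in 2 of their 4 clusters. Over all symbols 50.5% were on and 26.1% had 0 counts in all 3 libraries. Of 11 Hoxa genes 8 were on, with Hoxa10 at 24.7, 22.5 and 22.3 TPM and Hoxa11 at 18.9, 19.6 and 21.9 TPM. Of 9 Hoxc genes 7 were on, with Hoxc10 at 34.1, 33.4 and 33.8 TPM. None of 10 Hoxb genes was on, and all 9 Hoxd genes had 0 counts in all 3 libraries. Of the limb factors, Pitx1 and Tbx5 had 0 counts and Tbx4 had 0.658, 0.453 and 0.468 TPM. These genes were listed after the tables had been seen.

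Imprinted genes, expressed from a single parental copy, also differed by locus. Beside H19, Igf2 had 121, 87.9 and 96.3 TPM and Peg3 had 72.9, 46.9 and 46.8 TPM. At the Dlk1 and Meg3 locus, Dlk1, Meg3 and Rtl1 had 0 counts, and Rian and Mirg had at most 1 count in a library. Next to Cdkn2a and Cdkn2b, Mtap had 48.7, 60.2 and 57.8 TPM and Dmrta1 had 0 counts. Xist, the RNA that silences an X chromosome, had 117, 75.3 and 67.1 TPM.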
